A study of Mus musculus with 16 samples.

Results

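The glutathione S-transferase genes examined here were Gstp1 and Gstp2, which lie side by side on chromosome 19, the pseudogene Gstp-ps on chromosome 1, and the brain-expressed genes Gstm1, Gstm5 and Gsta4. These 6 of the 55487 genes counted were selected by symbol with earlier results of the same counts known, and all 6 were among the 18609 genes with enough counts to be tested. Bulk brain RNA came from 16 female mice on the background labelled C57/bl6 (C57BL/6J in the methods of the study), 4 for each pairing of genotype and drug. CETPtg mice, which served as the background of both genotypes, carry the human cholesteryl ester transfer protein (CETP) gene under its own promoter, a plasma protein that mice lack. APPtg/CETPtg mice carry in addition a human APP751 transgene with the Swedish and Indiana mutations, which the Thy1 promoter drives in neurons. All mice were fed a diet with 1% cholesterol from 11 weeks of age and received daily intraperitoneal injections of the CETP inhibitor evacetrapib at 30 mg/kg, or of its vehicle, for 11 weeks. Neuronal markers were present in every library, the most abundant being Snap25 at a mean of 2277 CPM (counts scaled to a common library size), and 0 of the 9 neuronal and 0 of the 12 astrocyte markers were at 0 in any mouse. The libraries held between 21391335 and 55453789 counts, with a median of 36043315 in CETPtg and of 23689163 in APPtg/CETPtg mice. The deepest library was that of the vehicle-treated APPtg/CETPtg mouse S8.

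Glutathione S-transferases join the thiol of glutathione to reactive electrophiles, such as products of lipid peroxidation, and so make them soluble and ready for export. The cytosolic enzymes are dimers grouped by sequence into classes, among them alpha (Gsta4), mu (Gstm1 and Gstm5) and pi (Gstp1 and Gstp2), whereas the microsomal enzymes form a separate membrane family. Many of these genes respond to the transcription factor NRF2. A processed pseudogene is a copy of a spliced messenger RNA that was inserted elsewhere in the genome, without introns and usually without a promoter.

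The sequences of the Gstp copies decide how well short reads can tell them apart, and are therefore shown first. In the GENCODE M21 annotation of GRCm38, Gstp1 lies on the minus strand of chromosome 19, 4035407 to 4037985, with 7 exons, and Gstp2 beside it at 4040285 to 4046023. Gstp-ps is a single stretch of 631 bases on the minus strand of chromosome 1, 192073820 to 192074450. It starts with coding base 3. Over the 628 coding bases that it shares, Gstp-ps differed from Gstp1 at 15 positions (97.6% identical) and from Gstp2 at 5 (99.2% identical), while Gstp1 and Gstp2 differed at 12 of 630 positions (98.1% identical). Coding bases 4 to 153 hold most of the differences at the front of the gene. They are printed 5' to 3' from the annotated transcripts, with the positions at which the 3 copies are not all alike in capitals.
Gstp1: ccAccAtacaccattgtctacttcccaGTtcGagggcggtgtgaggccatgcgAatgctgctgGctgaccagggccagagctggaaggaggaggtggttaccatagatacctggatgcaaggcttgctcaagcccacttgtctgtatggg
Gstp2: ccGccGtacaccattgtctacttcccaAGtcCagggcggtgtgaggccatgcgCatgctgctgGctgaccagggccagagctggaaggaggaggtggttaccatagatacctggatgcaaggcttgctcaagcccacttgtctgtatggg
Gstp-ps: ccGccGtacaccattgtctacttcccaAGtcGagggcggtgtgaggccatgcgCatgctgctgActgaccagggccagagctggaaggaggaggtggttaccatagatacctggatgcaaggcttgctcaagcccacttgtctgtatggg
Counting from 1 at the A of the start codon and writing the base of Gstp1 first, Gstp2 and Gstp-ps shared A6G, A9G, G31A, T32G and A57C. G35C occurred in Gstp2 alone, and G67A in Gstp-ps alone. Outside the printed stretch, Gstp-ps alone had C159T, C162T and G291A. Beyond position 330 the coding sequences of all 3 copies were the same to the end, a shared run of 300 bases, so that a read from there names no copy. No stop codon was found in Gstp-ps in the reading frame of Gstp1. How reads that match more than 1 copy were handled during counting is not given in the sources used here, so the split of reads among the 3 copies is uncertain.

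The members differed widely in level. Compared per length (RPKM, that is CPM over the length in kilobases of the union of exons), Gstm1 had the highest level of all glutathione transferase genes, 123 ± 8.47 RPKM (SD, n = 16). Gstm5 followed at 77.2 ± 5.25, Gstp1 at 48.8 ± 2.44 and Gsta4 at 23.5 ± 2.08 RPKM. The pseudogene was at 1.57 ± 1.01 and Gstp2 at 0.215 ± 0.0983 RPKM. The ranges of neighbours in this order did not overlap over the 16 mice, with the lowest value of Gstm1 at 105.7 against the highest of Gstm5 at 88.1, and the lowest of Gstp-ps at 0.540 against the highest of Gstp2 at 0.401. Gstp1 and Gstp2 were thus far apart in level, although their coding sequences are nearly alike. Among the other genes of the family, Mgst3, a microsomal enzyme, was the only one above Gsta4, at 58.4 ± 4.89 RPKM, and its range of 50.1 to 64.4 overlapped that of Gstp1 (45.6 to 53.8). Gstm7, Gsto1, Gstz1 and Gstt1 lay between 6.64 and 10.4 RPKM on average. Of the 31 genes of the family that were counted, 25 passed the filter (10 or more counts in 4 or more mice). Those that did not were Gsta1, with 0 counts in every mouse, Gsta2, Gstm3, Gstp3, Gstt4 and Mgst2, whose highest counts in a mouse were between 1 and 11.

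**Figure D1:**
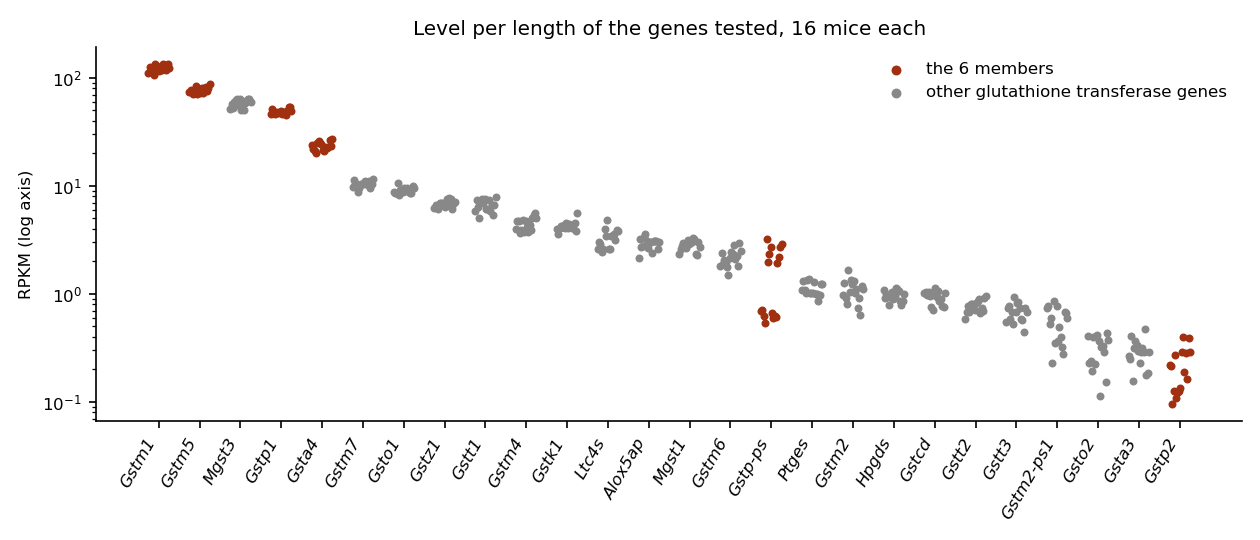
Level per length (RPKM, log axis) of each glutathione transferase gene tested and the pseudogene Gstm2-ps1, 1 point per mouse (n = 16), ordered by mean, with the 6 members in red. Gstm1 and Gstm5 lead at 123 and 77.2 RPKM, Gstp2 is lowest at 0.215 RPKM, and the points of Gstp-ps fall into 2 separate sets.

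Gstp-ps was about 4-fold higher in APPtg/CETPtg than in CETPtg brain. Which earlier results led to the choice of the members is not stated; the genotype contrast is taken to be the one, and values in it are given as a description. In vehicle-treated CETPtg mice, the 4 counts were 14, 14, 15 and 11 (S1 to S4), which is 0.395 ± 0.0186 CPM (SD, n = 4). With evacetrapib, CETPtg mice had counts of 20, 15, 15 and 12 (A to D), or 0.407 ± 0.0499 CPM. These 8 mice lay between 0.341 and 0.450 CPM. In vehicle-treated APPtg/CETPtg mice, the counts were 27, 31, 47 and 101 (S5 to S8), or 1.54 ± 0.273 CPM. With evacetrapib, they were 54, 31, 32 and 37 (E to H), or 1.62 ± 0.335 CPM. Every APPtg/CETPtg mouse, the lowest at 1.22 CPM, was above every CETPtg mouse, whichever the treatment. The fitted log2 fold change was 1.98 (standard error 0.14), which is 3.94-fold. This standard error was not raised for counting error and may be too small. The counts are small, and the lowest of 11 has an exact Poisson 95% interval of 5.49 to 19.7, which covers counting error only.

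Gstp1, the copy to which nearly all Gstp reads were assigned, showed a far smaller difference than the pseudogene. Its counts were between 1611 and 4256 per mouse. It had 73.7 ± 2.98 CPM (SD, n = 8) in CETPtg and 77.2 ± 3.83 CPM (n = 8) in APPtg/CETPtg mice, a log2 fold change of 0.07 (standard error 0.035), and the 2 genotypes overlapped. For each 1000 Gstp1 reads, up to 5.87 Gstp-ps reads were counted in a vehicle-treated and 4.76 to 6.08 in an evacetrapib-treated CETPtg mouse. In APPtg/CETPtg mice the range was 15.9 to 23.7 with vehicle and 17.1 to 27.5 with evacetrapib. The reads of Gstp-ps thus made up at most 0.603% of the reads of Gstp1, Gstp2 and Gstp-ps together in CETPtg and at least 1.56% in APPtg/CETPtg mice. When the reads of all Gstp copies were added up, the log2 fold change between genotypes was 0.09 (standard error 0.035). Its adjusted p was 0.0915 (edgeR), above 0.05. Gstp2 had 3 to 18 counts per mouse, with means of 0.233 ± 0.111 CPM (n = 8) in CETPtg and 0.245 ± 0.115 CPM (n = 8) in APPtg/CETPtg mice.

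**Figure D2:**
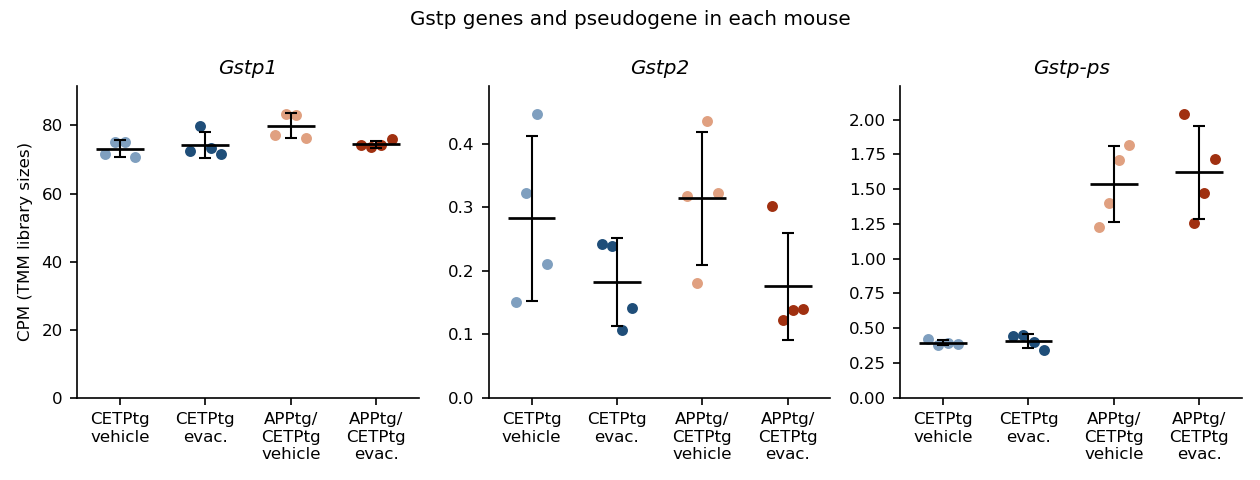
CPM of Gstp1, Gstp2 and Gstp-ps, 1 point per mouse, with the group mean (bar) and SD (n = 4); each panel has its own axis from 0. The 8 APPtg/CETPtg mice lie between 1.22 and 2.04 CPM for Gstp-ps, above the 8 CETPtg mice at 0.341 to 0.450 CPM. For Gstp1 and Gstp2, the 2 genotypes overlap.

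Among the other members, Gsta4, an alpha class enzyme with a preference for hydroxynonenal and related products of lipid peroxidation, was 1.15-fold higher in APPtg/CETPtg mice. Its lowest, median and highest values were 25.7, 27.4 and 30.1 CPM in the 8 CETPtg mice and 29.2, 31.5 and 34.4 CPM in the 8 APPtg/CETPtg mice. The genotypes overlapped, since S5 at 29.2 and S7 at 29.9 CPM lay below the CETPtg mouse A at 30.1 CPM. The log2 fold change was 0.20 (standard error 0.043). Gstm1, a mu class enzyme abundant in astrocytes, had 179 ± 10.8 CPM (SD, n = 8) in CETPtg and 184 ± 14.3 CPM (n = 8) in APPtg/CETPtg mice, a log2 fold change of 0.04 (standard error 0.047). Gstm5, another mu class enzyme, had 96.3 ± 5.11 and 101 ± 7.55 CPM, a log2 fold change of 0.07 (standard error 0.043). All 6 members had a positive estimate, and 2 of them, Gstp-ps and Gsta4, met the thresholds, which are an adjusted p not above 0.05 together with a change of 5% or more. Of all genes tested, 17.7% met them in this contrast, 9.35% higher and 8.38% lower in APPtg/CETPtg mice, and the 8 values of each genotype did not overlap for 3.03% of genes. As this contrast may have chosen the members, nothing is read from their count.

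**Figure D3:**
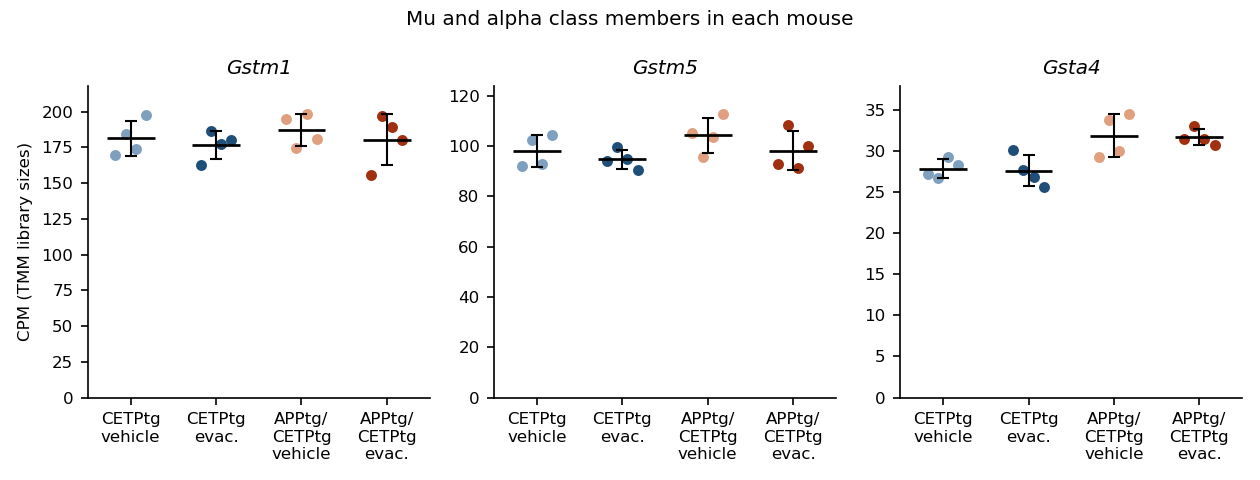
CPM of Gstm1, Gstm5 and Gsta4, 1 point per mouse, with the group mean (bar) and SD (n = 4), on axes from 0. For Gsta4, the APPtg/CETPtg groups average 31.8 CPM with vehicle and 31.7 with evacetrapib, against 27.8 and 27.6 in the CETPtg groups.

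The genotypes also differed in a trend with gene length, which bears on the small differences. When genes were put in 5 equal bins by exon length, all 6 members lay in the bin of the shortest (55 to 1882 bases), in which the median log2 fold change between genotypes was 0.09, against -0.07 in the bin of the longest. In the shortest bin, 99.8% of genes had a lower value than Gstp-ps and 70.9% a lower value than Gsta4, while Gstp1, Gstp2, Gstm1 and Gstm5 lay between 39.7% and 46.3%. After each mouse's trend with exon length was removed, the log2 fold change was 1.86 for Gstp-ps, 0.10 for Gsta4, which no longer met the thresholds, -0.02 for Gstp1, -0.03 for Gstp2, -0.05 for Gstm1 and -0.02 for Gstm5. Some cell type markers differed between the genotypes as well. Of all genes, 9.35% were higher and 8.38% lower, and 5.7% and 4.66% with the length trend removed. Of 10 oligodendrocyte markers, 6 were lower in APPtg/CETPtg mice and 0 higher (edgeR), and with the length trend removed Mbp was no longer called and Mog was called in its place. Their summed level had a lowest, median and highest value of 4422, 4926 and 5329 CPM in CETPtg and 3491, 4344 and 4771 CPM in APPtg/CETPtg mice, Mbp being the most abundant. Of 9 microglial markers, 4 were higher and 0 lower, with a sum of 362, 383 and 418 CPM in CETPtg and 380, 412 and 456 CPM in APPtg/CETPtg mice, Csf1r being the most abundant, and 2 were higher with the length trend removed. Of the 12 astrocyte markers, Slc1a2 (-0.35), the most abundant, and Gja1 (-0.20) were lower and Aldoc (0.14) was higher, of which Slc1a2 alone was called with the length trend removed, and their sum was 3745 ± 162 CPM (SD, n = 8) in CETPtg and 3376 ± 214 CPM (n = 8) in APPtg/CETPtg mice. Slco1a4 (-0.24) alone was lower among 10 endothelial markers, and Stmn2 (0.14) alone higher among the 9 neuronal ones, shares near those over all genes. With the length trend removed, Stmn2 kept its call and Slco1a4 did not. None of these markers was at 0 in any mouse, and their part in the members' values was not tested. Of the choroid plexus, meningeal fibroblast, blood and olfactory markers, 0 were called between the genotypes. In bulk tissue, fewer cells of a type and less RNA per cell cannot be told apart. The genotypes occupied different columns of the index plate, so that column and genotype cannot be told apart either. The same holds for plate row and treatment, since each row held mice of 1 treatment.

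Processed pseudogenes, Gstp-ps among them, were compared with their parent genes, a comparison chosen after values had been seen. Of 779 processed pseudogenes tested, 15.0% were higher and 1.80% lower in APPtg/CETPtg mice, against 10.4% and 9.60% of 15152 protein-coding genes. With the length trend removed, 9.76% of them were higher and 3.08% lower, against 6.36% and 4.9% of protein-coding genes, and their median log2 fold change was 0.02 in place of 0.13. They took up 0.0978% ± 0.00359 of all counts (SD, n = 8) in CETPtg and 0.113% ± 0.00191 (n = 8) in APPtg/CETPtg mice. A parent gene was matched by symbol for 165 of the pseudogenes, except that Gstp-ps was set against Gstp1 by hand. The sequence of Gstp-ps is nearer to Gstp2 (99.2% identical) than to Gstp1 (97.6%), and Gstp2 was at 0.07 as well. Of the 165 pseudogenes, 103 had a larger log2 fold change than their parent. The pairs held 122 different parents. Of the 165 pairs, the pseudogene was called higher in 35 and lower in 1, and the parent was called higher in 91. A parent with several pseudogenes was counted again for each of them. The median over the pairs was 0.23 for the pseudogenes and 0.13 for the parents. Among those with large values, Rpl35a-ps2, a copy of a ribosomal protein gene, was at 3.24 with its parent at 0.17. Gapdh-ps15, a copy of the glycolytic gene Gapdh, was at 1.55 with its parent at 0.05. The pseudogene of a mu class gene, Gstm2-ps1, was at 0.11 (standard error 0.26) with 4 to 22 counts per mouse.

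**Figure D4:**
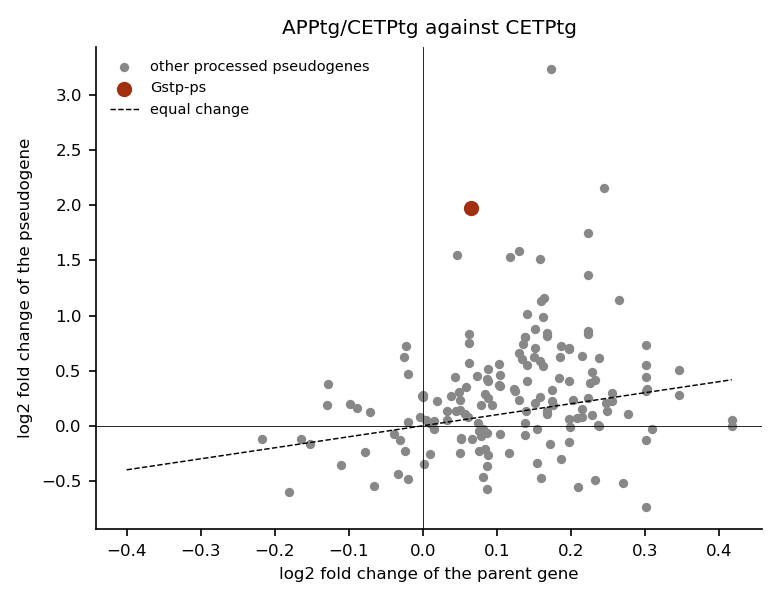
Log2 fold change between APPtg/CETPtg and CETPtg mice of 165 processed pseudogenes (vertical axis) and of their parent genes (horizontal axis), 1 point per pseudogene; the dashed line marks equal change. Gstp-ps (red), set against Gstp1 by hand although its sequence is nearer to Gstp2, is at 1.98 with Gstp1 at 0.07. Above the line lie 103 of the points.

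The genes whose log2 CPM followed Gstp-ps most closely over the 16 mice were mainly other pseudogenes. Of the 18603 genes compared, the 5 with the highest Pearson correlation were Rpl31-ps8 (r = 0.975), Rps16-ps2 (0.966), Rpl35a-ps2 (0.965), the predicted gene Gm2000 (0.965) and Gpx4-ps2 (0.953), a copy of the gene for a glutathione peroxidase that reduces lipid peroxides. The 16 points fall into 2 sets by genotype. Within the 8 CETPtg mice these correlations were between -0.14 and 0.39, and within the 8 APPtg/CETPtg mice between 0.53 and 0.86. Gstp1 was followed most closely by Uqcrc1, a subunit of respiratory complex III (r = 0.890), the proteasome subunit gene Psmd4 (0.884), the proton pump gene Atp6v0c (0.875), Abcf3 (0.857) and the mitochondrial malate dehydrogenase gene Mdh2 (0.851). For these 5, the correlation was 0.64 to 0.78 within CETPtg and 0.90 to 0.97 within APPtg/CETPtg mice. All of these are descriptions over mice that fall into the same 4 groups and differ in library depth by genotype. Between Gstp1 and Gstp-ps, the correlation was 0.44 within CETPtg and -0.04 within APPtg/CETPtg mice. Gstm1 and Gstm5, which lie in the same cluster on chromosome 3, had 0.75 and 0.51.

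The genes around the loci were read for the same contrast, as a description. Gstp-ps had rank 3 by p among the 18609 genes tested in it. Little can therefore be read from the smaller differences of the genes around it. The nearest tested genes of Gstp-ps on chromosome 1 (chosen after values had been seen) were Rd3 and Slc30a1 on one side and Rcor3 and Gm10516 on the other, with log2 fold changes of -0.31 (standard error 0.22), -0.05 (0.057), -0.15 (0.052) and -0.04 (0.098). Rcor3 starts 24096 bases away, and its adjusted p was 0.0529 (edgeR). Within 1 Mb on each side, 24 other genes were tested, of which 2 were higher and 2 lower in APPtg/CETPtg mice, shares near those over all genes (9.35% and 8.38%), with values from -0.38 to 0.99. Beside the Gstp locus on chromosome 19, Ndufv1, a subunit of respiratory complex I, was higher (0.15, standard error 0.029, adjusted p = 0.00147, edgeR), whereas Doc2g (-0.04), Cdk2ap2 (0.11) and Pitpnm1 (0.00476) did not pass the test. Near the Gstm locus, Csf1 (-0.07), Ahcyl1 (-0.06), Ampd2 (0.00415) and Gm12500 (-0.11) did not pass either, nor did C920006O11Rik (-0.03), Rn7sk (-0.21), Cgas (0.05) and Gm17324 (0.33) near Gsta4.

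Evacetrapib was compared with vehicle to ask whether CETP inhibition altered these genes, and 0 of the 6 members met the thresholds over all mice, in either genotype, or in the difference between the genotypes' effects. The shares of all genes that met them were 0.0107% over all mice, 0% in CETPtg, 0.043% in APPtg/CETPtg mice and 0% for the difference. At an unadjusted p below 0.05 there was 1 member of 6 over all mice (Gstp2), 0 in CETPtg, 1 in APPtg/CETPtg mice (Gstp1) and 0 for the difference, by edgeR, beside 7.91%, 5.8%, 9.01% and 6.83% of all genes, and limma-voom likewise called 0. The Wald test of DESeq2 called 0 too, but gave no adjusted p for Gstp2 over all mice and for Gstp2 and Gstp-ps in APPtg/CETPtg mice. Gstp-ps had a log2 fold change of 0.05 (95% interval -0.24 to 0.35) over all mice, in CETPtg of 0.05 (-0.45 to 0.55) and in APPtg/CETPtg mice of 0.06 (-0.32 to 0.44). For Gsta4 the interval over all mice was -0.10 to 0.08, for Gstm1 -0.14 to 0.05 and for Gstm5 -0.16 to 0.02. A change of the size that separated the genotypes in Gstp-ps was thus outside its intervals under treatment, which may be too narrow at such low counts.

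The values of Gstp1 and Gstp2 are given in full, since their unadjusted p-values were the lowest of the members. Vehicle-treated APPtg/CETPtg mice had 77.1, 83.3, 83.0 and 76.5 CPM of Gstp1 (S5 to S8), and evacetrapib-treated ones 74.2, 73.6, 74.3 and 76.0 CPM (E to H). The highest treated mouse lay just below the lowest vehicle mouse, and the 4 values of each treatment did not overlap for 4.29% of all genes in this genotype. Over the same mice, the summed level of 9 choroid plexus markers was 393 ± 297 CPM (SD, n = 4) with vehicle, S8 being highest at 822, and 214 ± 4.89 with evacetrapib. The most abundant of them was Enpp2, at a mean of 220 CPM over all mice. The endothelial sum was 242 ± 23.0 and 297 ± 24.7 CPM, and that of 8 meningeal fibroblast markers 56.1 ± 8.51 and 72.0 ± 3.94 CPM. With vehicle and evacetrapib in CETPtg mice, the endothelial sum was 254 ± 19.1 and 287 ± 20.2 CPM. There, the choroid plexus sum was 283 ± 109 and 279 ± 69.5 CPM, and the meningeal fibroblast sum 63.2 ± 8.85 and 61.75 ± 3.98 CPM. None of these markers was called, the part of these lists was not tested, and without S8 the log2 fold change of Gstp1 was -0.12. In CETPtg mice the values were 71.5, 75.3, 75.3 and 70.6 CPM with vehicle (S1 to S4) and 72.5, 79.8, 73.5 and 71.5 CPM with evacetrapib (A to D), and the groups overlapped, while the treatments were apart for 3.92% of all genes. The log2 fold change was -0.10 (standard error 0.047) in APPtg/CETPtg and 0.02 (0.046) in CETPtg mice, with adjusted p = 0.543 and 0.957, and the difference between them was -0.12 (0.066), adjusted p = 0.739 (edgeR, adjusted over all genes tested). Gstp2 had counts of 5, 12, 17 and 6 with vehicle and 11, 8, 4 and 5 with evacetrapib in CETPtg mice. Its counts in APPtg/CETPtg mice were 7, 4, 12 and 18 with vehicle and 8, 3, 3 and 3 with evacetrapib. The groups overlapped in both genotypes. Its log2 fold change with both genotypes together was -0.72 (standard error 0.29, adjusted p = 0.554, edgeR).

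**Figure D5:**
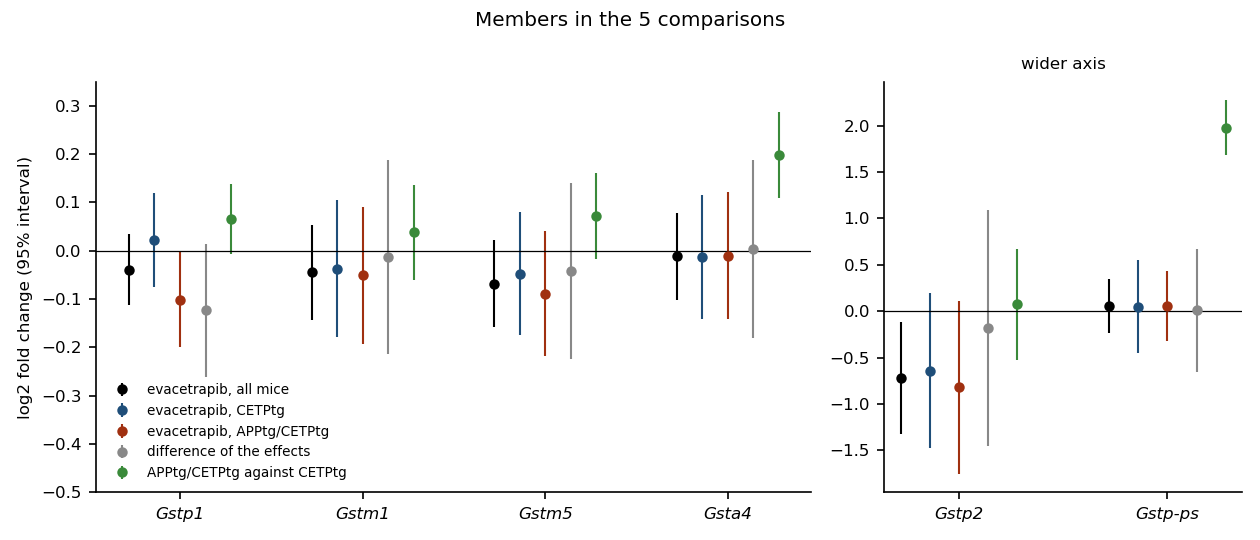
Log2 fold changes of the 6 members (points) with 95% intervals in the 5 comparisons, the evacetrapib effects against vehicle in black, blue and red, their difference between genotypes in grey and the genotypes in green; the right panel has a wider axis. Under treatment the interval of every member reaches 0 but for Gstp2 over all mice and Gstp1 in APPtg/CETPtg mice, and Gstp-ps stands at 1.98 between the genotypes.

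The rest of the glutathione transferase family was read in the same way. Of 19 other genes tested, 0 met the thresholds for evacetrapib over all mice. At an unadjusted p below 0.05 there were 2, beside 7.91% of all genes. They were Gstm6 (log2 fold change -0.31, standard error 0.10, adjusted p = 0.452) and Gstt2 (-0.20, 0.094, adjusted p = 0.622, edgeR). The median of the 19 was -0.03, against -0.00148 over all genes. For the difference between genotypes, 2 of the 19 had an unadjusted p below 0.05, beside 6.83% of all genes. They were Gstm4 (-0.37, standard error 0.15, adjusted p = 0.703) and Mgst1 (0.37, standard error 0.15, adjusted p = 0.703, edgeR). Between the genotypes, 2 of these 19 were higher and 0 lower in APPtg/CETPtg mice, a share close to the 9.35% of all genes that were higher. They were Mgst3 (0.17, standard error 0.044, adjusted p = 0.00983) and Ltc4s, the leukotriene C4 synthase gene (0.34, standard error 0.11, adjusted p = 0.0429, edgeR). Estimates of the other 17 ran from -0.23 for Gstcd to 0.31 for Gsto2. With the length trend removed, Gstp-ps was the only gene of the 25 in the family that met the thresholds, and the median of the cytosolic genes turned from 0.07 to -0.02.

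The wider glutathione system was described from lists, and 0 genes of any of them met the thresholds under evacetrapib over all mice or within a genotype. Gclc, the catalytic subunit of the rate-limiting enzyme of glutathione synthesis, was at -0.10 on the log2 scale with both genotypes together (standard error 0.032, adjusted p = 0.42), and Nqo1, a quinone reductase and NRF2 target, was at -0.24 (standard error 0.081, adjusted p = 0.453, edgeR). Slc7a11, the cystine importer, was at 0.32 within the APPtg/CETPtg genotype (standard error 0.094, adjusted p = 0.291, edgeR) and at -0.05 within CETPtg, a difference of 0.37 (adjusted p = 0.703). Abcc4, an exporter, was at 0.28 within CETPtg (standard error 0.069, adjusted p = 0.837) and at -0.02 within APPtg/CETPtg, a difference of -0.30 (adjusted p = 0.703, edgeR). Between the genotypes, 9 of 22 peroxidases, redoxins and related enzymes were higher in APPtg/CETPtg mice and 1 was lower (9.35% and 8.38% of all genes), and their median was 0.12 against 0.00459 over all genes tested. Higher were Prdx2 (0.20), Prdx5 (0.23), Gpx1 (0.20), Gpx4 (0.21), Sod1 (0.11), Txn1 (0.14), Txn2 (0.11), Txnrd2 (0.19) and Glrx5 (0.12), and the mitochondrial superoxide dismutase gene Sod2 was lower (-0.19). With the length trend removed, 5 of the 22 were higher and 1 lower, beside 5.7% and 4.66% of all genes. Of 17 genes of glutathione synthesis and turnover, Pgd (0.20) and Ggt7 (0.14) were higher and Gclm (-0.14), the modifier subunit partnering Gclc, was lower. Of 18 NRF2 targets outside the family, Cbr1 (0.19) and Srxn1 (0.18) were higher and Gclm was lower, with Srxn1 no longer called when the length trend was removed, and of 8 genes of NRF2 and its regulators, Cul3 (-0.19) was lower. Of 6 exporters of glutathione conjugates, 0 met the thresholds, and the 2 with the lowest p were Abcc5 (0.08) and Abcc4 (-0.12). Abcc5 was called with the length trend removed (0.16). The promoters of Gstp1, Gstp2, Gstm1 and Gstm5, windows of 300 bases around the start in RefSeq's GRCm38.p6, were searched on both strands for the antioxidant response element core TGACNNNGC, through which NRF2 acts. An exact match was found for Gstm5 and not for Gstp1, Gstp2 and Gstm1, beside 12.4% of all promoters. The windows of Gstp1 and Gstp2 both hold tgagtcagc, which differs from this core at 1 base. The search for exact matches therefore does not show that NRF2 sites are absent. The GC box GGGCGG occurred in Gstp1, Gstp2 and Gstm5, beside 35.7% of all promoters, and such matches are no more than descriptions of these windows.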

How the data were processed

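Brain RNA of 16 mice was analysed, grouped by the labelled genotype and treatment. Directional libraries had been made from poly(A) RNA. The authors used Trimmomatic 0.39 for trimming, STAR 2.7.8a for alignment to mm10 and HTSeq-count for counting. What they deposited are counts, whole and not normalized, for each gene and mouse, and the annotation and the handling of multiply aligned reads are not given in the sources used here. Of the gene identifiers, 55141 were found in GENCODE M21, which gave positions, exon lengths and the Gstp sequences.

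A gene entered the tests when 4 or more mice had 10 or more counts. TMM library sizes and the two-sided quasi-likelihood F test from edgeR 4.0.16 (R 4.3.3) were used, and p-values were adjusted by Benjamini-Hochberg across the genes that entered. A gene was called when its adjusted p did not exceed 0.05 and it changed by 5% or more. Treatments over all mice were compared with a genotype term, genotypes with a treatment term, and the other contrasts with a mean for each group. Standard errors are the fold change over the root of F. While edgeR raises the p of low counts to that of a Poisson test, the standard errors and intervals were not raised. For low counts, as in Gstp-ps, they may be too narrow. The labels do not state litters or batches, so p-values measure the spread between these mice.

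The members and the gene lists were chosen with earlier results of these data known. The genes named were the members, their family, list genes that were called or had the 2 lowest p, the 5 most correlated with Gstp1 and Gstp-ps, and the 2 nearest on each side of each locus. Alternatives were DESeq2 1.42.0, its size factors, limma-voom (limma 3.58.1), other filters and thresholds, other samples or terms in the fit, plate row as a block, each mouse left out and summed Gstp reads. Removal of the trend with exon length and a block for the number of the mouse in its group were added after seeing the data. The fit was tested on simulated counts.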

Additional observations from a re-analysis of the deposited data

Results flagged for a closer look

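Gstp2 in the evacetrapib-treated APPtg/CETPtg mouse E stood apart from the other 3 mice of its group, at 0.302 CPM (8 counts) against 0.122 to 0.139 CPM (3 counts each). Its gap to the nearest of them was 0.903 of the range of the group, over Dixon's 95% critical value for 4 samples. For continuous, normal values chance marks about 1 group in 20, and 24 groups were examined, 6 genes in 4 groups. That rate does not hold for small tied counts such as these, so little can be read from this mark. Without this mouse, the log2 fold change of Gstp2 under evacetrapib in APPtg/CETPtg mice was -1.24.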

How the results depend on the processing

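Under the alternatives run, 0 members were called for evacetrapib over all mice, within a genotype and in the difference between genotypes, though DESeq2 gave no adjusted p for Gstp2 over all mice and for Gstp2 and Gstp-ps in APPtg/CETPtg mice. Between the genotypes, 2 were called under all alternatives that tested the members singly but 1. That was the removal of the trend with exon length, under which 1 was called. In that fit, Gsta4 was at 0.10 and the cause was not tested, and 1929 of all genes were called against 3299. With the Gstp reads summed, Gstp-ps was not tested on its own. The sum was not called (log2 fold change 0.09, adjusted p = 0.0915, edgeR). Gstp2 could not be tested with a filter of 10 counts in every mouse. Over all genes, calls for evacetrapib differed by more than 1.5 times between settings. Over all mice there were 2, against 57 with the Wald test of DESeq2 and 35 with no filter. In CETPtg mice there were 0, against 9 with no filter. In APPtg/CETPtg mice there were 8, against 73 with DESeq2, 88 with no filter, 2 in a fit of these 8 mice alone and 5 with the number of the mouse as a replicate block. For the difference between genotypes there were 0, against 2 with DESeq2, 29 with no filter and 2 with plate row as a block.

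Log2 fold changes that changed sign were not called in any setting. The difference in effect turned for Gsta4 with DESeq2's size factors (-0.0016), its Wald test (-0.0038), limma-voom (-0.0015) and no filter (-0.012), and for Gstp-ps with limma-voom (-0.017) and no filter (-0.0085). Without a genotype term, Gstp-ps under evacetrapib was at -0.011. With the length trend removed, Gsta4 under evacetrapib in APPtg/CETPtg mice was at 0.0082 and the difference for Gstm1 at 0.017. The summed reads of the Gstp copies, in place of those of Gstp-ps, gave -0.039 over all mice, -0.099 in APPtg/CETPtg mice and -0.12 for the difference, and in place of those of Gstp2 they gave 0.020 in CETPtg mice. With each mouse left out in turn, evacetrapib over all mice ranged from -0.022 to 0.12 for Gstp-ps and from -0.034 to 0.0079 for Gsta4. In CETPtg mice it ranged from -0.0081 to 0.041 for Gstp1, from -0.068 to 0.0097 for Gstm1 and from -0.058 to 0.019 for Gsta4. In APPtg/CETPtg mice the ranges were -0.073 to 0.17 for Gstp-ps, -0.089 to 0.019 for Gstm1 and -0.046 to 0.034 for Gsta4. For the difference they were -0.60 to 0.030 for Gstp2, -0.12 to 0.12 for Gstp-ps, -0.056 to 0.055 for Gstm1 and -0.038 to 0.047 for Gsta4. Between the genotypes, Gstp2 ranged from -0.058 to 0.23, Gstm1 from 0.012 (without F) to 0.061 (without E) and Gstm5 from 0.043 (without F) to 0.083 (without B). Depth limits Gstp2 and Gstp-ps most, whose lowest counts in a mouse were 3 and 11.

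The header of the deposited table numbers the mice of each group 1 to 4, and nothing says that equal numbers share a litter or batch. Deviations of same-numbered mice from their group means had correlations of -0.203 to 0.173 over 24 pairs, of which 1 was over 0.1, and 2 of the 16 mice correlated best with a mouse of their own number. With this number as a replicate block, added after seeing the data, 2 members were called between the genotypes (Gstp-ps at 1.97 and Gsta4 at 0.20) and 0 in the other comparisons. Plate row, of which each holds 1 mouse of each genotype and 1 treatment only, was tried as a block and left 2 members called between the genotypes (Gstp-ps at 1.96 and Gsta4 at 0.20) and 0 in the difference.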
